A study of Anopheles gambiae with 5 samples.

Results

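The genes described here are the 5 c-type lysozyme genes AGAP007343, AGAP007344, AGAP007345, AGAP007347 and AGAP007385 of the malaria mosquito Anopheles gambiae. They were chosen by gene identifier, and all 5 were found among the 13102 annotated genes with a model on the chromosomes that carry peaks. Chromatin came from pooled midguts of adult females of the KISUMU strain aged 6 to 8 days, kept on sugar solution, with no treatment and no second condition. It was precipitated with antibodies against acetylated or trimethylated lysine 27 of histone H3 (H3K27ac and H3K27me3), and input chromatin was the control. RNA from midguts and from salivary glands of such females was assembled into 1 merged set of transcripts, which gives exon positions but neither abundance nor tissue. Each mark and each tissue had 1 library, so there was no replicate and no test, and the counts below describe these libraries. Whole midguts were used, so the cell types of the gut are not separated. That these genes encode lysozymes is taken from their identifiers, since no sequence or product name was at hand to check it against.

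C-type lysozymes are small secreted enzymes that cut the sugar backbone of peptidoglycan, the mesh of the bacterial cell wall. In insects they act in immunity, in the hemolymph and at the gut lining, and in Drosophila melanogaster several of them are made in the midgut, where they help digest bacteria taken up with food. The fly genes also lie in a tight cluster. H3K27ac is found at the starts of active genes and at active enhancers, while H3K27me3 is laid down by Polycomb complexes over repressed genes. A gene may also carry neither mark, or lie below what a peak caller can detect.

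The lysozyme genes fell into 2 places on chromosome 2L with different marks. AGAP007343, AGAP007344, AGAP007345 and AGAP007347 stand side by side in an array and had neither mark at the start, in the body or between the genes. AGAP007385 stands alone 242223 bp to the right and lay whole inside an H3K27ac peak. No lysozyme gene was touched by an H3K27me3 region within 200 bp. In counts, a peak overlapped the body or the adjoining 200 bp of 1 of the 5 lysozyme genes for H3K27ac, against 37.0% of all annotated genes, and of 0 of 5 for H3K27me3, against 28.8%. The counts at the transcription start, taken with 200 bp on each side, were again 1 of 5 for H3K27ac and 0 of 5 for H3K27me3, against 31.5% and 21.3% of all annotated genes. Neither mark was found at 4 of 5 lysozyme genes, against 37.5% of all annotated genes.

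Lysozyme genes are short, and short genes carry peaks less often. Their models ran from 642 to 1248 bp, while the median annotated gene spanned 2262.5 bp. Among the 3728 annotated genes no longer than 1248 bp, 21.6% carried H3K27ac, 20.4% carried H3K27me3 and 58.6% carried neither. The lysozyme count of 4 in 5 with neither mark thus stands nearer to that of short genes than to that of all genes. With 5 genes, of which 4 are neighbours, nothing is read from the difference that remains.

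The array spans 6043 bp of 2L, from 45975679 to 45981721 in the AgamP4 assembly (positions counted from 1), and all of its genes are transcribed from the minus strand. It starts on the left with AGAP007343 (45975679 to 45976926), followed by AGAP007344 (45977240 to 45977881) and AGAP007345 (45978939 to 45979603). AGAP007347 (45981005 to 45981721) closes it on the right. Between AGAP007345 and AGAP007347 lies AGAP007346 (45979983 to 45980624), which is annotated but is not among the 5 genes chosen, and to which the files give no product. The array is dense: the 4 gaps between these 5 genes measured 313 bp, 1057 bp, 379 bp and 380 bp from left to right, while consecutive annotated genes that do not overlap had a median gap of 2393 bp.

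**Figure D1:**
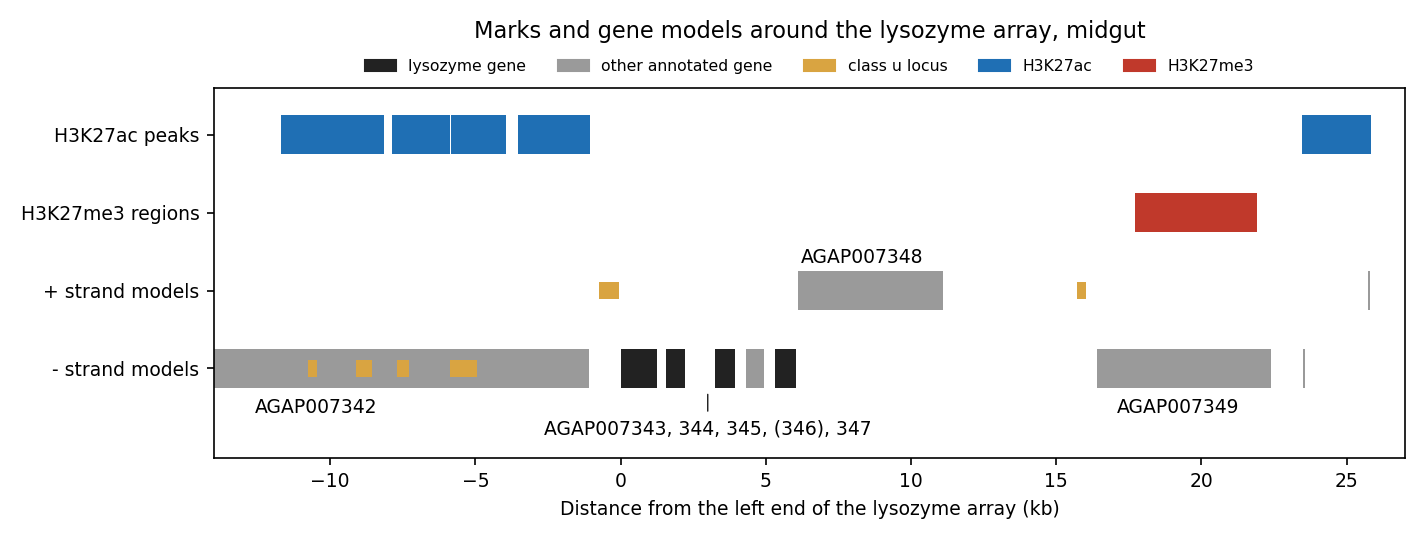
Map of the lysozyme array, with H3K27ac peaks (blue), H3K27me3 regions (red) and gene models on each strand, against the distance in kb from the left end of the array. No peak of either mark lies between the H3K27ac peak at the start of AGAP007342, 1054 bp left of the array, and the H3K27me3 region over AGAP007349, 11679 bp to its right.

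No base of the array was under a peak. The 2129 bp between its genes had 0 bp under H3K27ac and 0 bp under H3K27me3, and so had the bodies of AGAP007343, AGAP007344, AGAP007345, AGAP007347 and AGAP007346. The array lay in a stretch of 18776 bp free of both marks, from 45974625 to 45993400, placed toward the left end of it. Of the 19175 such stretches between peaks on the placed chromosomes, 1990 (10.4%) were at least as long, with a median of 2789 bp over all. The stretch held 6 annotated genes whole, the 5 of the array and AGAP007348. Of 2493 stretches holding an annotated gene, 74 (2.97%) held 6 or more. The array stretch was taken because it holds the 5 neighbouring genes of the array, so nothing is read from this share. Of placed genes, 17.6% lay in stretches as long as the array stretch or longer.

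The left edge of this stretch is acetylated chromatin. AGAP007342, a gene of 74225 bp on the minus strand known here only from alternative isoforms (class "j" in the assembly), carried 8 H3K27ac peaks. The score is the number that the peak caller gave each peak, and here it ran from 63.03 to 281.58. The highest-scoring of them, from 45972137 to 45974624, covered the start of its longest transcripts at 45974592 and ended 32 bp beyond it. That score was higher than 54.3% of the H3K27ac list. The peak ended 1054 bp short of the 3′ end of AGAP007343, and H3K27ac covered 2.95% of the 1086 bp between the 2 genes. A single-exon transcript of class "u", the code for intergenic sequence, lay in that gap on the plus strand from 45974948 to 45975611. It ended 67 bp before AGAP007343 and carried neither mark.

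The distance to acetylated chromatin grew along the array. The gene body was 1054 bp from the nearest H3K27ac peak in AGAP007343, 2615 bp in AGAP007344, 4314 bp in AGAP007345 and 6380 bp in AGAP007347. In each case this was the same peak of AGAP007342. It was measured from the 3′ end of the genes, and the starts were farther away, at 2301 bp in AGAP007343 and 7096 bp in AGAP007347. Placed annotated genes had a median distance of 2245 bp from H3K27ac, so AGAP007343 lay closer than the median gene and the other array genes lay farther. Genes at least as far from H3K27ac as AGAP007347 made up 38.4% of placed genes.

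Methylated chromatin was more remote. The nearest H3K27me3 region, from 45993401 to 45997599 with a score of 365, lay over AGAP007349 to the right. It was 16474 bp from AGAP007343, 15519 bp from AGAP007344, 13797 bp from AGAP007345 and 11679 bp from AGAP007347, against a median of 4497 bp for placed genes. To the left, the nearest region ended 80079 bp from AGAP007343. The share of placed genes at least as far from H3K27me3 was between 25.6% for AGAP007343 and 32.8% for AGAP007347. When both marks are counted together, 9.99% of placed genes were at least as far from any peak as AGAP007347, at 6380 bp, and 28.0% as far as AGAP007343, at 1054 bp.

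**Figure D2:**
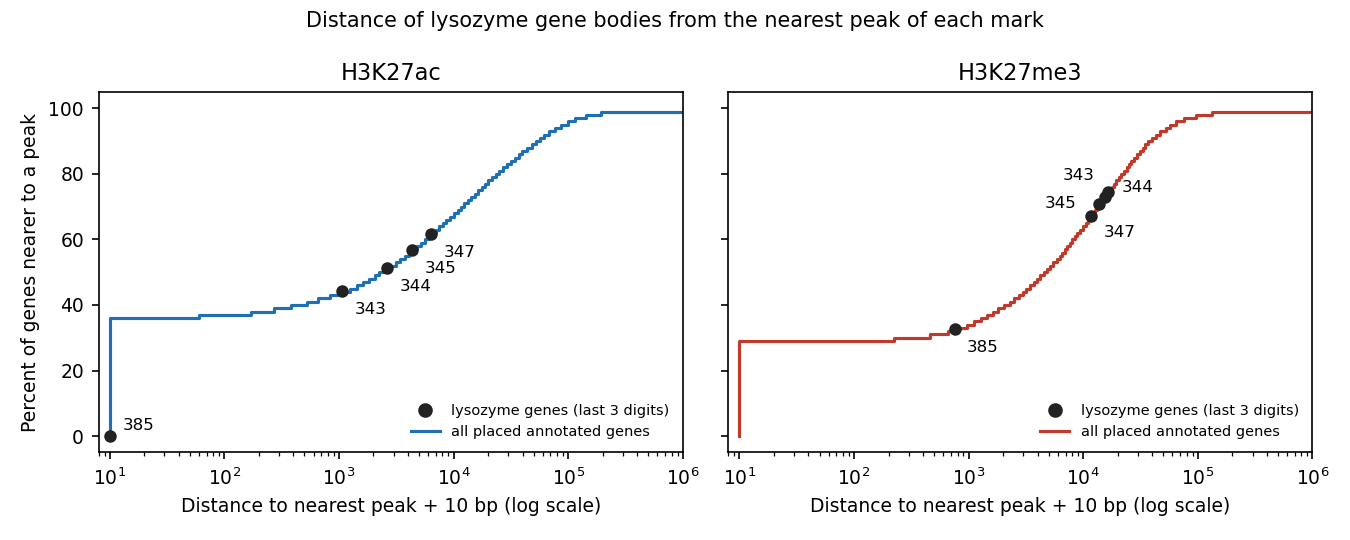
Distance of the body of each lysozyme gene (black points, last 3 digits of the identifier) from the nearest peak, on a log scale with 10 bp added, on the cumulative curve of all 12543 placed annotated genes. The array genes spread from 1054 to 6380 bp for H3K27ac and from 11679 to 16474 bp for H3K27me3, while AGAP007385 is at 0 bp for H3K27ac and 745 bp for H3K27me3.

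On its right the array ends in a divergent pair of starts. AGAP007347 starts at 45981721 on the minus strand and AGAP007348 at 45981791 on the plus strand, with 69 bp between them. AGAP007348, for which the files give no product, spans 4989 bp in 2 transcripts that match the annotation (class "=") and had 0% of its body under either mark. Of the 125 divergent pairs of placed genes with at most 200 bp between their models, 81 (64.8%) had H3K27ac at a start and 39 (31.2%) had neither mark at either start. The pair at AGAP007347 belongs to these 39.

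Most tandem runs of close genes elsewhere carried a mark at some gene, though most of the genes in such runs carried none. There were 22 runs of at least 5 consecutive annotated genes on one strand with gaps of up to 1057 bp, a definition taken from the lysozyme array after it had been seen. The lysozyme array is one of these runs and had neither mark at any gene, as did 6 of the 21 other runs. AGAP007342, acetylated and on the same strand, lies 1086 bp to the left of the array, just outside this limit. The unmarked state of the lysozyme run thus depends on the limit chosen. The remaining 15 runs carried a mark at some of their genes: 9 had H3K27me3 and no H3K27ac, 2 had H3K27ac and no H3K27me3, and 4 had both. Of the 149 genes in the other runs, 67.8% carried neither mark, against 37.5% of all annotated genes. However, 1 run alone held 38 genes, of which 37 were unmarked. Without that run the share was 57.7% of 111 genes, close to the 58.6% of short genes.

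AGAP007385 had the opposite state. It lies on 2L from 46223945 to 46224992 on the plus strand, with 39 annotated genes between it and the array. A single H3K27ac peak from 46223146 to 46225763 began 799 bp before its start, covered 100% of its 1048 bp and ended 771 bp after its 3′ end. The midpoint of the peak fell 509 bp downstream of the start. The score of 359.76 was higher than 60.7% of H3K27ac scores and the length of 2618 bp was above that of 64.4% of peaks, so the peak is of middling rank in its list. All 602 exonic bp of AGAP007385 were acetylated. The combination seen here, H3K27ac at the start and in the body with no H3K27me3, was shared by 28.9% of annotated genes, and the unmarked state of the array genes by 38.3%.

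**Figure D3:**
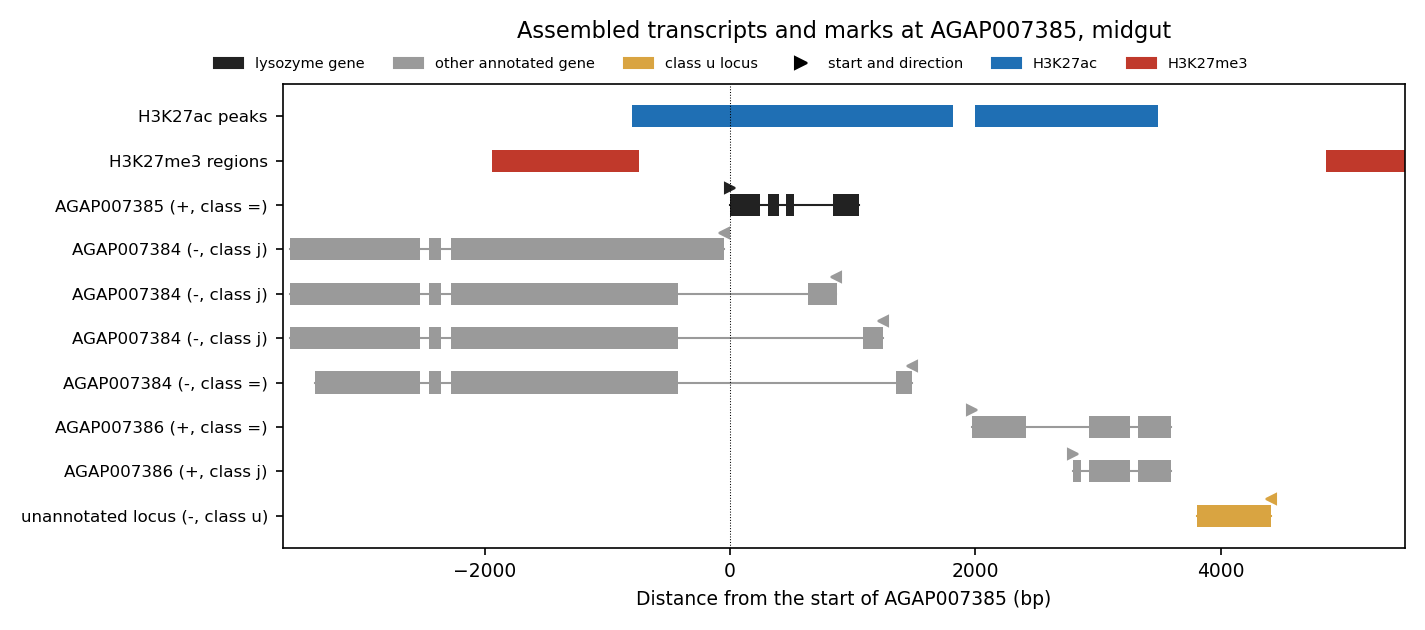
Assembled transcripts at AGAP007385 (black) and its neighbours (grey), with H3K27ac peaks (blue) and H3K27me3 regions (red), against the distance in bp from the start of AGAP007385; triangles mark starts and direction. The peak over AGAP007385 also holds the 4 starts of AGAP007384, which runs the other way.

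The acetylation of AGAP007385 cannot be told apart from that of a gene on the other strand. AGAP007384 starts to the right of AGAP007385 and is transcribed leftward across it. Its class "=" transcript starts at 46225429, and its first intron, from 46223516 to 46225295, holds AGAP007385 whole. In a class "j" transcript that starts at 46225188 AGAP007385 is likewise intronic. Another, with its start at 46224811, shares 27 bp of exon with AGAP007385, or 4.49% of its exonic sequence. In the remaining class "j" transcript the start at 46223895 lies 50 bp to the left of the start of AGAP007385, so that the genes do not overlap in it. All 4 starts of AGAP007384 and the start of AGAP007385 were inside the same H3K27ac peak, 5 starts in all. H3K27ac peaks with starts from both strands numbered 490, or 15.2% of the 3228 peaks that hold the start of an annotated gene. Of the 569 annotated genes (4.34%) that lie whole inside the span of a longer gene on the other strand, 27.9% carried H3K27ac.

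H3K27me3 came close to AGAP007385 without reaching it. A short region of 1199 bp, from 46222001 to 46223199 with a score of 116, ended 745 bp before the start of AGAP007385. It lay over an exon of AGAP007384 and shared 54 bp with the left end of the H3K27ac peak. The score was higher than 15.5% of the H3K27me3 list and the length above 13.9% of it. The H3K27me3 score rose with region length (Spearman's rho of 0.94 across 12939 regions of this library, a description) and may be a count of reads per region, so it is not read as strength of enrichment. Sharing of this kind was uncommon: 154 of 6639 H3K27ac peaks (2.32%) had any base in common with an H3K27me3 region. With windows of 1000 bp in place of 200 bp, AGAP007385 counts as carrying H3K27me3, and the number of lysozyme genes with this mark is 1 of 5, against 33.0% of all annotated genes.

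Downstream of AGAP007385 the acetylation went on almost without a break. H3K27ac covered 83.8% of the 920 bp between AGAP007385 and AGAP007386, the next gene on the plus strand. A second peak, from 46225939 to 46227434 with a score of 318.93, covered 91.8% of AGAP007386. A long H3K27me3 region of 11199 bp, with a score of 1357, began at 46228801, 3808 bp from AGAP007385, over several class "u" transcripts. The length of this region was above that of 94.1% of the list.

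Acetylated genes surround AGAP007385. Of the 10 annotated genes to the left of AGAP007385, 10 carried H3K27ac and 1 carried H3K27me3, and of the 10 to its right 8 carried H3K27ac and 0 carried H3K27me3. The left set includes AGAP007384, which spans AGAP007385 and shares its H3K27ac peak. AGAP007384 is also the gene of that set with H3K27me3, over 24.6% of its body. Beside the array the marks were mixed. H3K27ac was on 4 of the 10 genes to its left and 3 of the 10 to its right, and H3K27me3 was on 3 genes to the left and 6 to the right. Of the 39 genes between the array and AGAP007385, 21 carried H3K27ac, 15 carried H3K27me3 and 6 neither. The shares of all annotated genes were 37.0% for H3K27ac, 28.8% for H3K27me3 and 37.5% for neither.

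Widening the window around the array brought in acetylation first. With 5000 bp on each side, 22.1% of the array window was under H3K27ac and 0% under H3K27me3, against means of 15.2% and 17.8% over placed genes. With 15000 bp the array window had 27.5% under H3K27ac and 9.21% under H3K27me3, against means of 13.6% and 19.4%. Around AGAP007385, H3K27ac made up 72.7% of the window at 2000 bp and 23.3% at 15000 bp, while H3K27me3 made up 23.8% and 39.9% at these widths. At 50000 bp the order turned for the array: H3K27me3 made up 27.2% and H3K27ac 21.8% of the array window. The marks were level around AGAP007385, at 20.6% for H3K27me3 and 20.3% for H3K27ac. The means over placed genes at this width were 22.1% for H3K27me3 and 11.7% for H3K27ac, so more H3K27me3 than H3K27ac is the usual order there.

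**Figure D4:**
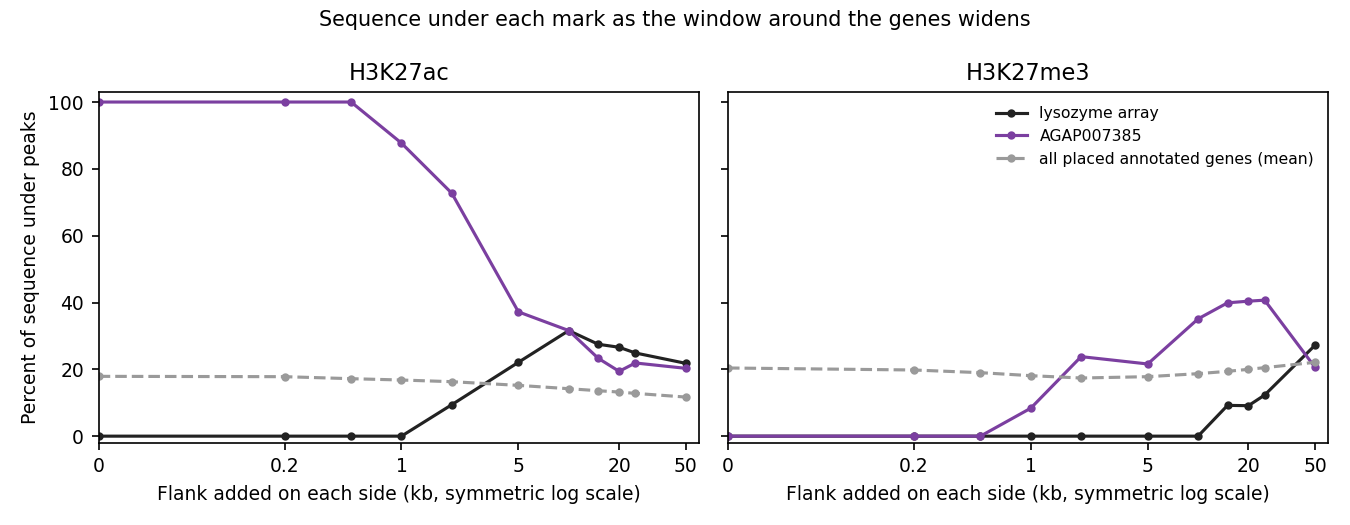
Percent of sequence under H3K27ac peaks (left) and H3K27me3 regions (right) as flanks of up to 50 kb are added on each side of the lysozyme array (black), of AGAP007385 (purple) and of all placed annotated genes (grey, mean). Within 1 kb the array has 0% under either mark, and H3K27me3 first enters its window at the plotted flank of 15 kb, at 9.21%.

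Each lysozyme gene was represented by 1 assembled transcript of class "=", which has the same introns as the annotation. No alternative isoform (class "j"), other overlap (class "o") or antisense transcript (class "x") carried the name of any of the 5 genes, and no other transcript overlapped the array. Having 1 transcript is common, at 70.1% of annotated genes. The file does not say whether annotated transcripts were added to the merged set without reads, so a class "=" model is not read as a sign that a lysozyme gene was transcribed in either tissue. By contrast, the genes at both edges of the array and around AGAP007385 had several models, 5 for AGAP007342, 2 for AGAP007348, 4 for AGAP007384 and 2 for AGAP007386.

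The exon structures of most array genes resemble each other, and all array genes differ from AGAP007385 in the length of the next-to-last exon. AGAP007344 has exons of 132, 159 and 191 bp in the direction of transcription, with introns of 68 and 92 bp. AGAP007345 has exons of 152, 159 and 193 bp and introns of 67 and 94 bp, and AGAP007347 has exons of 193, 153 and 225 bp and introns of 67 and 79 bp. The 3 genes thus share a layout of 3 exons with a middle exon of like length.

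AGAP007346, which is not among the chosen genes, has the same layout with exons of 150, 156 and 201 bp and introns of 58 and 77 bp. AGAP007343 is longer because it has 4 exons, of 89, 231, 153 and 292 bp, and a first intron of 333 bp. Its next-to-last exon again measures 153 bp.

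AGAP007385 is like AGAP007343 in having 4 exons and 1 long intron. Its exons measure 241, 89, 64 and 208 bp, and its last intron 321 bp. Its next-to-last exon of 64 bp is shorter than those of the array genes. An intron of 61 bp parts it from the exon of 89 bp. Whether the exons of 89 and 64 bp together match the next-to-last exon of the array genes was not tested. Over the array, the next-to-last exon ran from 153 to 159 bp in all 5 genes and its length was a multiple of 3 in each. Of the 11762 class "=" transcripts with more than 1 exon, 3.08% have a next-to-last exon of 153 to 159 bp, the median is 216 bp, and 37.5% have a length that is a multiple of 3. This range was taken from the array genes themselves, so nothing is read from these shares. The exonic length of the lysozyme models ran from 482 bp in AGAP007344 to 765 bp in AGAP007343.

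**Figure D5:**
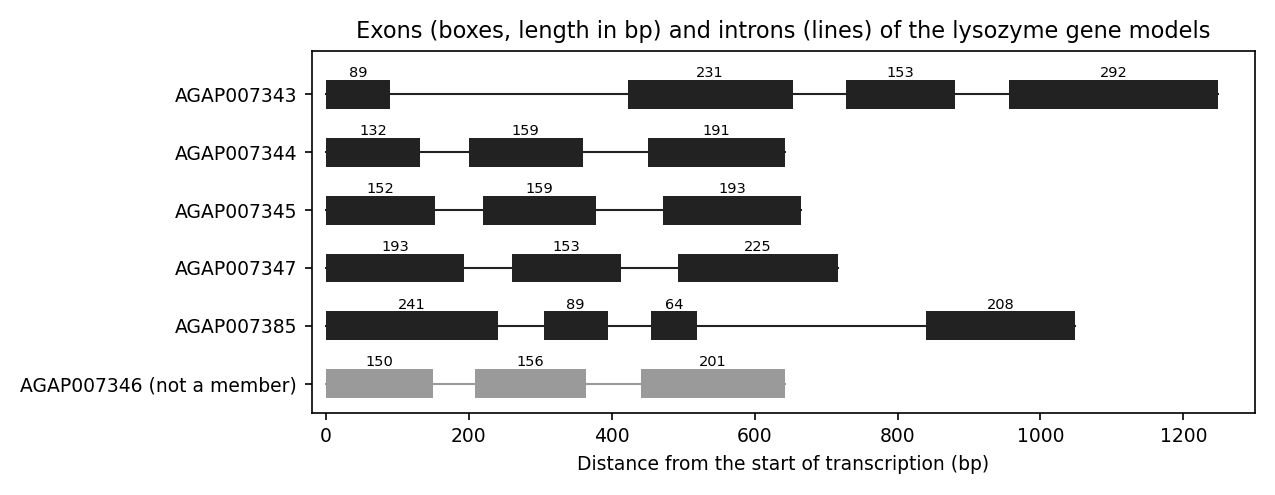
Exons (boxes, with lengths in bp) and introns (lines) of the lysozyme gene models and of AGAP007346, drawn in the direction of transcription against the distance from the start in bp. The next-to-last exon is 153 to 159 bp in the array genes and 64 bp in AGAP007385.

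The lysozyme genes were set beside the other antibacterial effectors of the candidate genes that the study lists. These are 4 cecropins, 5 defensins and gambicin (GAM1), secreted peptides that kill microbes. Of the 5 lysozyme genes, 1 carried H3K27ac alone and 4 carried neither mark. Of the 10 peptide genes, 2 carried H3K27ac alone, 4 carried H3K27me3 alone, 1 carried both and 3 carried neither. With genes that carry both marks counted under each, 3 of the 10 peptide genes carried H3K27ac and 5 carried H3K27me3. Counted in this way, 37.0% of all annotated genes carried H3K27ac and 28.8% carried H3K27me3, while 37.5% carried neither. The share of all annotated genes with both marks is not given here. Some peptide genes are neighbours too: CEC1, CEC2 and CEC3 lie close together on X, and DEF3 and DEF5 on 2L. The peptide genes with a mark were mostly covered whole, such as CEC1 and DEF2, each with 100% of the body under H3K27ac, and DEF1, with 100% under H3K27me3. AGAP007385 had the same cover by H3K27ac as CEC1 and DEF2. The array lysozymes lay 1054 to 6380 bp from the nearest peak of either mark, against 9310 bp for CEC4, 5190 bp for DEF4 and 8514 bp for GAM1, the unmarked peptide genes. The ranges overlap, since AGAP007347 lay farther from a peak than DEF4. In the assembly, all 5 lysozyme genes had 1 transcript, as did 8 of the 10 peptide genes.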

How the data were processed

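Per the labels and the study's methods, the authors aligned ChIP libraries to the AgamP4 assembly using Bowtie 1.0.0, leaving out repetitive reads, and called peaks against input. How much of the lysozyme array the kept reads could reach was not examined. The deposited H3K27ac list gives a MACS score per peak (50.02 to 3233.06) and the deposited H3K27me3 list a whole-number score per SICER region (39 to 23492) that no header explains and that may be the reads in the region, so that a cutoff on it also selects long regions. The scores are used only within their own list. The deposited transcripts come from TopHat2 2.0.10 and Cufflinks 2.1.1, and their other values are exon positions in bp. The study gives the reads per library, but the reads themselves were not used here, so the depth at each gene and the precision of each peak were not measured.

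Models were class "=" transcripts, or failing these class "j", or failing both class "o". A mark was counted where at least 1 bp of a peak fell on a gene with 200 bp on each side, or within 200 bp of a start. Placed genes exclude the unplaced sequence UNKN. Python 3.11.15, numpy 2.4.6 and matplotlib 3.10.9 were used, and the overlap functions were tested on simulated data. The genes, lists and tests were chosen with earlier results of these data known. All 5 lysozyme genes, their bordering genes, the nearest peaks on each side and the 10 listed effectors are named. Windows, overlaps, peak cutoffs, gene models and peak merging were varied. The input library and expression were not analysed here, so the tissue was not checked against marker genes. No sequence of these genes was used here, since 0 entries of the RefSeq gene table carry the identifiers of the files.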

Additional observations from a re-analysis of the deposited data

How the results depend on the processing

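Of the 8 results recomputed, those of H3K27ac (1 of 5 lysozyme genes, 1 of 5 starts, 24.3% of the summed gene bodies and 0% of the sequence between array genes) were the same under stricter peaks, an overlap of at least 50%, windows of 1000 bp, no flank, all transcripts of a gene and merged peaks, as far as each setting applies to them. For H3K27me3, windows of 1000 bp moved the number of lysozyme genes with the mark to 1 and the number of starts to 1, against 0 and 0 with 200 bp, and both are AGAP007385. Over all annotated genes, 33.0% of genes and 25.8% of starts carried H3K27me3 with windows of 1000 bp. With 5 genes, a count of 1 is not told apart from either share. The other settings left H3K27me3 at 0. Stricter peaks, an overlap of at least 50% and no flank can only remove overlaps, so a value of 0 could not change under them. The H3K27ac count of 1 was also fixed under these settings, since AGAP007385 lies whole inside a peak scoring above the cutoff. Using all transcripts could change nothing, since each lysozyme gene had 1 transcript. Merging peaks within 1000 bp could not reach the array, inside a stretch of 18776 bp free of both marks. Nor could it join the H3K27me3 regions beside AGAP007385, which end at 46223199 and begin at 46228801. Only the windows of 1000 bp could thus move a lysozyme count. With windows of 1000 bp the count of genes with H3K27ac stayed at 1 by a small margin, since AGAP007343 lay 1054 bp from a peak. No looser peak list was tried. Stricter peaks were those at or above the median score of 244.41 for H3K27ac and 248 for H3K27me3. No paired analysis was possible because each mark has 1 library. The read depth over these genes was not measured and there is no replicate, so a lysozyme gene with no peak is not shown to lack the mark.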
